A study of Mus musculus with 26 samples.

Results

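The genes described here are the 120, of 55291 in the table of counts, that were higher in mouse embryonic stem cells (ESCs) made to express either Dux or its mutant DuxR70A, with an upper limit on their increase by Zscan4. A gene's level is given as CPM, its count per 1000000 counts of its library. Members were chosen by their levels in 5 of the 13 groups. A member had a mean level, after 1 was added to each mean, at least 1.5-fold higher in Dux overexpression (Dux OE) and in DuxR70A OE than in each of 2 control groups, untreated ESC and DMSO-treated ESC, and less than 2-fold higher in Zscan4 OE than in ESC. In all, 166 genes passed the 4 overexpression ratios. The Zscan4 limit removed 46 of them, and leaving out genes named Hox, Hist, mt- or H2- removed 0, although H1f10 and H2bu2 are histone genes under newer names. The 166 genes made up 13.3% of the 1247 genes that passed in Dux OE and 11.9% of the 1390 that passed in DuxR70A OE.

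All 26 libraries came from the R1 mouse ESC line, grown with LIF on gelatin and read by poly(A) RNA-seq, with 2 libraries in each of 13 groups. The wild-type groups were ESC, DMSO, Dux OE, DuxR70A OE, Zscan4 OE (the 3 transgenes induced with doxycycline at 4 µg/mL for 24 h), RA (retinoic acid at 0.53 µM for 48 h) and PlaB (pladienolide B, an inhibitor of the spliceosome, at 4 nM for 4 days). Dux knockdown (Dux KD, made with short hairpin RNAs) was combined with RA, PlaB or Zscan4 OE. Knockout of a super-enhancer (SE KO), which the study names the Tdpoz super-enhancer, was combined with RA, PlaB or Dux OE. Doses and times were the same where the labels give them. The labels of Dux KD Zscan4 OE give the treatment as 'no', without dose or time. Whether doxycycline was given there is not known. The labels call 1 of the SE KO RA libraries wild type. Transgenic lines without doxycycline were not analysed here, so the transgene cannot be told apart from the vector, the line and doxycycline itself. The labels do not say that the libraries of a group came from separate cultures, so p-values measure the spread between these libraries, which may be technical.

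Dux is a transcription factor with 2 DNA-binding homeodomains that is made in the mouse embryo around the 2-cell stage and that, in ESCs, turns on a set of early embryonic genes, the 2C genes, such as the Zscan4 family. ESC cultures hold a small share of cells in such a state, and RA, PlaB and Zscan4 are each used to raise that share. DuxR70A carries alanine in place of an arginine. The study describes it as a protein that does not form condensates. In a gel shift assay it still bound a probe from MERVL, an endogenous retrovirus. In cells, the study reports by CUT&Tag profiling that its occupancy at MERVL elements was reduced. These bulk libraries cannot tell more cells with a transcript from more transcript per cell.

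The table does not show the mutant transgene itself. Duxf3, the endogenous Dux gene in the annotation, was at 3.66 and 2.98 CPM in Dux OE and at 0 and 0 CPM in DuxR70A OE, and the sources used here do not say whether transgene reads are counted under it. Zscan4c, a 2C gene, was at 741 and 745 CPM in Dux OE and at 0.112 and 0.0664 CPM in DuxR70A OE, against 5.12 and 5.45 CPM in ESC. Library totals ran from 14401452 to 39402840 counts, so that 3 counts in a library were worth 0.0761 to 0.208 CPM.

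No member is on the list of 2C genes used here. That list of 37 genes holds 31 that passed the same ratios in Dux OE and 0 that passed in DuxR70A OE. Of the members, 111 are protein coding in GENCODE M21, 3 are pseudogenes, 2 are antisense transcripts, 2 are other noncoding RNAs and 2 histone genes are not named there. Their ESC level was under 1 CPM for 26 members, 1 to 10 CPM for 58 and 10 CPM or more for 36.

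By known role, 68 of the 120 can be placed in 10 small groups, 9 of which are described here. The groups were drawn up after the members were seen and so carry no test. Their names stand for a role and not for a place in the cell. Of these members, 9 were placed with the lysosome, the acid compartment in which cells break down macromolecules. Counted among the 9 is Tcn2, the vitamin B12 carrier transcobalamin, which is not itself a lysosomal enzyme. The others are Gaa (acid alpha-glucosidase), Man2b2 (a mannosidase), Ctsh (cathepsin H), Hyal1 (a hyaluronidase), Grn (progranulin), Igf2r (the receptor that carries mannose 6-phosphate-tagged enzymes to the lysosome) and Cln6 and Cln8 (which help those enzymes leave the endoplasmic reticulum). A further 9 act in vesicle traffic and exocytosis (among them Rab21, Rab3b, Rab3il1, Unc13b, Syn3 and Snap91), 9 in lipid handling (Apoe, Alox5, Pla2g4a and others), 9 in the extracellular matrix or as secreted proteases (Plau, St14, Frem2, Vwf), 8 are receptors or guidance molecules (Ret, Flt4, Itga2b, Ephb1, Slit2, Reln), 6 belong to the cilium (Dnah1, Dnaic1), 5 to mitochondrial fuel use (Cpt1a, Mlycd, Acot1, Fabp3, Ogdhl), 4 are solute carriers (Slc40a1, the iron exporter ferroportin, among them) and 3 act in meiosis or chromosome segregation (Rec8, Pttg1, M1ap). The members' share of a wider list of 64 lysosome genes was 9 genes, of 30 fatty acid oxidation genes 4, of 35 axoneme genes 5 and of 36 synaptic vesicle genes 7. Members made up 0.781% of the 14975 genes with a mean of at least 1 CPM. These wider lists were also drawn up after the members were seen, around roles found among them. Their shares are therefore favoured by the choice of lists and carry no test.

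Promoter sequences were looked at because Dux binds a known motif and because many lysosome genes carry a CACGTG element, the E-box, often in a longer form with GT before it and AC after it. RefSeq windows of 300 bases, from 250 before to 50 after the transcript start (GRCm38.p6), were found for 89 of the 120 members. The Dux motif searched for, on both strands, was TGATT, any 2 bases and then ATCA, and it lay in 0 of these 89, in 0.139% of genes with a mean of at least 1 CPM and in 1.34% of the genes raised in Dux OE but not in DuxR70A OE. CACGTG lay in 20 of the members' 114 windows (17.5%, against 9.96% of windows of all genes with a mean of at least 1 CPM), belonging to 17 of 89 members, of which Gaa and Igf2r are lysosome members and the others are not, and the longer form, which contains it, in 3 of 89 members (3.37%, against 0.768% of genes). The 3 members with the longer form were Igf2r, Rab21 and Ogdhl (a subunit of an oxoglutarate dehydrogenase-like enzyme complex). The E-box share varied with base composition: among windows of 60% to 70% GC it was 31.7% for members (13 of 41 windows) and 11.7% for all, and among windows of 50% to 60% GC it was 4.26% (2 of 47) and 9.14%. A match is a stretch of letters and was not tested as a binding site. Shown here are the long form with 10 bases on each side in Igf2r (chr17:12769696-12769725, minus strand) and Ogdhl (chr14:32322002-32322031, plus strand), and the 250 bases before the start of Rab21 (chr10:115315592-115315841, minus strand) and of Gaa (chr11:119267713-119267962, plus strand), which has the short form only. Sequences run 5′ to 3′ on the gene's strand, and capitals mark the motif.
Igf2r: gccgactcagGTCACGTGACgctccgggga
Ogdhl: cggcggccgtGTCACGTGACctaggtaatt
Rab21: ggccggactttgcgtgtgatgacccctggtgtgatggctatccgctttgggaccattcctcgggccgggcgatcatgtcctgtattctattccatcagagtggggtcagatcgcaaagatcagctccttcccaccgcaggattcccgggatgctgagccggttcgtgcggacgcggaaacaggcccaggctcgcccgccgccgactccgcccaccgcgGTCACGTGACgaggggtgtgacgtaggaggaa
Gaa: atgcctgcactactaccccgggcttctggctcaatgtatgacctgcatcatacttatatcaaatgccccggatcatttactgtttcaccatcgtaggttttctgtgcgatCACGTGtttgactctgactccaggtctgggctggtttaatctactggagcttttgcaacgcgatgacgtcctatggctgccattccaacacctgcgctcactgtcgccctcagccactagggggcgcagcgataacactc

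The increase that chose the members was modest and much alike for both proteins. The median ratio of a member was 1.83 in Dux OE over ESC, 1.95 in DuxR70A OE over ESC, 1.86 in Dux OE over DMSO and 1.96 in DuxR70A OE over DMSO. The DuxR70A ratio was the larger in 77 members and the Dux ratio in 43. All of these values chose the members and so carry no test. Libraries of both proteins lay above all 4 control libraries in 119 of the 120 (of the 14975 genes, 19.5% did so in Dux OE and 32.5% in DuxR70A OE, and 4.94% and 8.23% passed the ratio). The exception was the pseudogene Gm2451, at 8.99 and 2.05 CPM in Dux OE. The median of all genes was itself 1.125-fold higher in DuxR70A OE than in ESC, against 1.012-fold in Dux OE. With libraries scaled by edgeR's trimmed mean of M-values (TMM), the median member ratio was 1.72 in DuxR70A OE over ESC and 1.80 in Dux OE over ESC, all 120 stayed above 1 in all 4 ratios, and the smallest ratio of any member was 1.30. The threshold cut through a continuum: just inside it were Lrrc51 (smallest ratio 1.5003), Dzip1 (1.5034) and Ret (1.5049), and just outside were Aph1c (1.499), Notch3 (1.4977) and Adamtsl4 (1.4974).

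Azin2, an antizyme inhibitor that promotes polyamine synthesis (chr4:128930233-128962442, minus strand, mm10), had the largest smallest ratio of the 120, 2.67. It was at 13.4 and 11.4 CPM in ESC, 9.27 and 6.73 in DMSO, 34.3 and 35.3 in Dux OE and 35.6 and 36.1 in DuxR70A OE. These 2 overexpression groups lay within 2 CPM of each other and held the highest values of all 13 groups. Rab3il1, an exchange factor for Rab GTPases (chr19:10001669-10038380, plus strand), was at 1.56 and 2.43 CPM in ESC, 1.39 and 2.31 in DMSO, 6.46 and 6.84 in Dux OE and 10.7 and 10.4 in DuxR70A OE. Prnp, the prion protein gene, was at 8.96 and 7.405 CPM in ESC, 8.097 and 8.12 in DMSO, 19.4 and 18.2 in Dux OE and 21.4 and 22.1 in DuxR70A OE. In Rab3il1 and Prnp the DuxR70A OE libraries lay above the Dux OE libraries without overlap on the plain CPM scale. On the TMM scale the log2 difference was 0.48 (SE 0.19) for Rab3il1 and 0.02 (SE 0.12) for Prnp. Neither was called in the test given below. Ephb1, an ephrin receptor, was nearly absent from controls, at 0.167 and 0 CPM in ESC and 0.106 and 0 in DMSO, against 1.73 and 1.18 in Dux OE and 1.34 and 1.46 in DuxR70A OE. The other genes among the top 20 by this ratio were Tmem132c, Aldh1l1 (a folate enzyme), Thsd4, Rapgef4 (a cAMP-activated exchange factor), Uap1l1, Slc16a4 (a monocarboxylate transporter family member), M1ap, Cd109, Frem2 (a basement membrane protein), Flt4, Gm15421, Frmpd1, Abhd3, Tcn2 (the vitamin B12 carrier transcobalamin), Unc13b (which readies vesicles for release) and Dnah1 (an axonemal dynein). In all, 7 of the 120 had all 4 ratios at 2 or more.

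**Figure D1:**
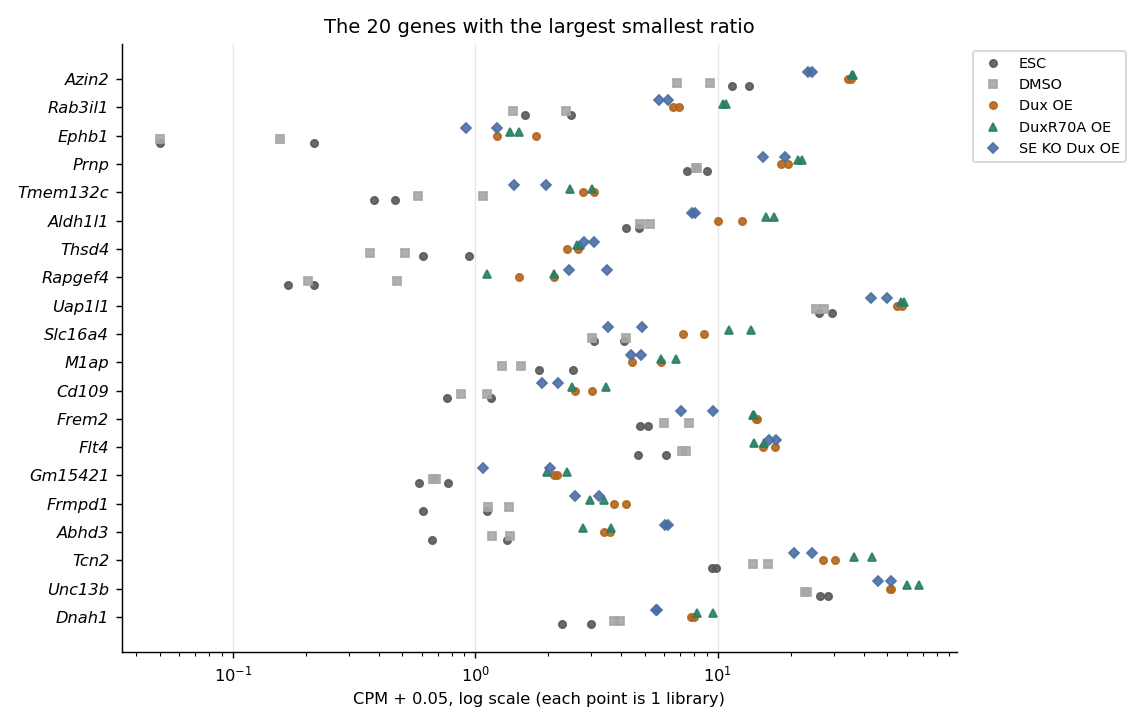
Level of the 20 members with the largest smallest ratio, 1 point per library, on a log axis of CPM with 0.05 added, for ESC, DMSO, Dux OE, DuxR70A OE and SE KO Dux OE. In each gene the Dux OE and DuxR70A OE points lie to the right of the 4 control points. Azin2, for example, is at 34.3 and 35.3 CPM in Dux OE and at 13.4 CPM or less in the controls.

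Levels in the other groups are described here over the same 2 control groups that the rule used. With RA, 92 of the 120 were at least 1.5-fold over both ESC and DMSO, against 22.2% of genes with a mean of at least 1 CPM, and with SE KO RA 91 were (21.4% of genes). With Dux KD RA 76 were (22.9%). With PlaB 61 were (31.3%), with SE KO PlaB 57 (15.4%) and with Dux KD PlaB 49 (5.66%). In SE KO Dux OE the count was 61 (5.98%), in Zscan4 OE, which the rule limits, 18 (5.66%), and in Dux KD Zscan4 OE 20 (5.88%). Both libraries lay above all 4 control libraries for 105 members in RA (40.8% of genes), 104 in SE KO RA (40.3%), 103 in Dux KD RA (44.5%), 79 in PlaB (42.2%), 92 in Dux KD PlaB (27.1%), 89 in SE KO PlaB (32.5%), 100 in SE KO Dux OE (22.1%), 80 in Zscan4 OE (28.4%) and 33 when Zscan4 OE was joined to Dux KD (19.6%). Of the groups that the rule did not use, RA and SE KO RA therefore held the most members high, and the median member was 2.15-fold over ESC in RA, 2.24-fold in SE KO RA and 1.89-fold in Dux KD RA. The highest of the 13 groups was RA for 27 members, PlaB for 24, DuxR70A OE for 19, SE KO RA for 15, SE KO PlaB for 12, Dux KD RA for 9 and Dux OE for 7. PlaB was also the lowest group for 24 members, as ESC was for 24 and DMSO for 35, so that PlaB spread the members in both directions. All of these groups are set against the same ESC and DMSO libraries. The rule chose members that were low in these libraries, so a higher level in any other group is favoured by the choice. The counts are a description.

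**Figure D2:**
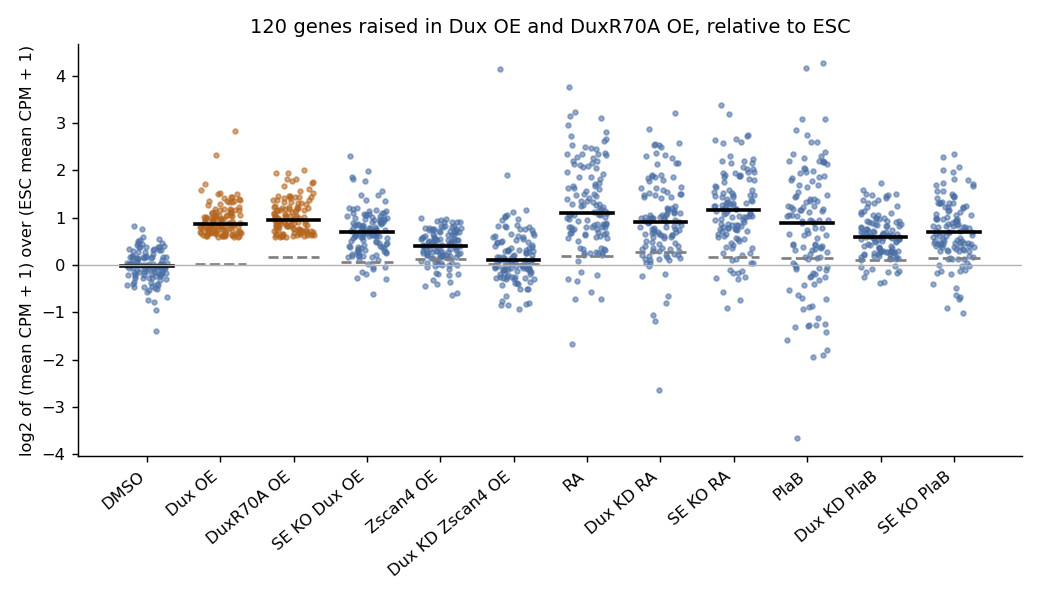
Each point is 1 of the 120 members, drawn as log2 of its mean CPM plus 1 over the ESC mean plus 1, for 12 groups. Black lines mark the members' median and dashed grey lines the median of all genes with a mean of at least 1 CPM. Orange marks Dux OE and DuxR70A OE, whose levels over ESC and DMSO chose the members. The member median is highest in SE KO RA (2.24-fold) and RA (2.15-fold), and PlaB has the widest spread.

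The role groups are given by the same ratio. All 9 lysosome members were at least 1.5-fold over both controls in RA, 7 in SE KO RA, 5 in Dux KD RA, 6 in PlaB and 2 in SE KO Dux OE. Of the 9 vesicle traffic members, 8 were so in SE KO Dux OE and 8 in RA, and 3 in SE KO PlaB. Receptors and guidance molecules stood high in RA (8 of 8) and in SE KO RA (7 of 8) and 1 of 8 was so in Dux KD PlaB. Of the 6 cilium genes, 6 passed in SE KO RA and 3 in Dux KD RA. In mitochondrial fuel use, 3 of 5 passed in RA and 1 of 5 in Dux KD RA. Among the 54 lysosome genes of the wider list that were tested and are no members, 14 passed in DuxR70A OE, 2 in Dux OE, 27 in RA and 33 in SE KO RA.

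Gaa was at 48.7 and 49.998 CPM in ESC, 47.1 and 52.3 in DMSO, 76.2 and 78.9 in Dux OE, 108 and 94.4 in DuxR70A OE and 127 and 127 in RA. Grn was at 77.8 and 78.3 CPM in ESC, 56.9 and 59.6 in DMSO, 134 and 145 in Dux OE, 129.6 and 118 in DuxR70A OE and 216 and 227 in RA. Both had their highest level in RA, above every overexpression library. Igf2r, an imprinted gene, was at 87.6 and 95.3 CPM in ESC, 93.3 and 95.4 in DMSO and 161 and 179 in Dux OE, had its highest level in DuxR70A OE, 196 and 198, and was at 166 and 171 in RA and 70.04 and 84.5 in PlaB. Its PlaB libraries lay below all 4 control libraries. On the TMM scale its log2 difference between DuxR70A OE and Dux OE was 0.02 (SE 0.09).

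Apoe, a lipid carrier, and Cpt1a, which brings fatty acids into mitochondria, were high with Dux and DuxR70A but each lay below the controls with another treatment. Apoe was at 219.8 and 224 CPM in ESC, 421 and 449 in Dux OE and 419 and 377 in DuxR70A OE, but at 67.5 and 71.6 in RA and 34.8 and 34.7 in Dux KD RA. Cpt1a was at 94.2 and 90.8 CPM in ESC, 165 and 158 in Dux OE, 161 and 145 in DuxR70A OE and 149 and 144 in RA, and at 38.2 and 38.5 in PlaB. Apoe in RA and Cpt1a in PlaB thus lay below every control library. Fabp3, a fatty acid-binding protein, was at 69.6 and 74.2 CPM in ESC, 42.8 and 44.02 in RA and 354 and 311 in PlaB, low in the former and high in the latter.

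Rec8, the cohesin subunit of meiosis, was at 16.8 and 18.2 CPM in ESC, 29.4 and 25.97 in Dux OE and 34.7 and 33.005 in DuxR70A OE, and was at 156 and 159 in RA, its highest group. Pttg1, securin, was at 26.5 and 25.2 CPM in ESC, 40.2 and 46.5 in Dux OE and 48.1 and 51.997 in DuxR70A OE, and its PlaB libraries stood apart at 567 and 469 CPM. Rab21, an endosomal GTPase, was at 35.9 and 34.3 CPM in ESC, 55.8 and 63.95 in DuxR70A OE, 74.5 and 74.1 in RA and 8.49 and 10.3 in PlaB. Its PlaB libraries were the lowest of all 26.

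Differences between groups were tested in 9 comparisons and 2 differences of differences, each in 1 model of all 26 libraries (edgeR quasi-likelihood test, Benjamini-Hochberg adjustment over all 20953 genes tested, which include all 120). A gene is called where its adjusted p is under 0.05 and its log2 fold change is at least 1 in size. Fold changes are on the TMM scale and levels on the plain CPM scale.

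Dux OE and DuxR70A OE differed in 7 of the 120. DuxR70A OE was higher in 2 and lower in 5, against 6.11% and 7.51% of all genes. Both groups were used by the rule, which sets a floor under each, so these counts are not independent of how the members were chosen. Lower with DuxR70A were Ccdc60, which was at 8.19 and 10.9 CPM in Dux OE and 2.398 and 2.52 in DuxR70A OE (log2 fold change -2.15, SE 0.24, adjusted p = 4.7e-08), and Itga2b, integrin alpha IIb, at 14.1 and 13.5 in Dux OE against 4.13 and 3.85 (log2 fold change -1.98, SE 0.18, adjusted p = 1.2e-09). Dlgap2, Abhd6 and Cpxm2 followed with log2 fold changes of -1.73, -1.04 and -1.27. The call on Cpxm2 was lost without any 1 of the 4 libraries (-1.07 to -1.47), that on Abhd6 without Dux OE replicate 2 (-0.93), with library size alone (-0.85) or without the filter on low counts (-0.96), and that on Osbp2 without DuxR70A OE replicate 1 (1.18). In Ccdc60 and Itga2b, the Dux OE libraries lay over 1.5-fold above every DuxR70A OE library, and the DuxR70A OE libraries still lay above all controls. Higher with DuxR70A were Ctsh, at 1.798 and 2.05 CPM in Dux OE and 5.24 and 5.25 in DuxR70A OE (log2 fold change 1.25, SE 0.27, adjusted p = 0.00059), and Osbp2, an oxysterol-binding protein (log2 fold change 1.28, SE 0.37, adjusted p = 0.0074). The split depends on scaling, since with library size alone 5 were higher and 3 lower. On the TMM scale 80 members were below 0, and with library size alone 77 were above 0, while the median of all genes moved by 0.17 on the log2 scale. For the other 113 members no difference of this size was called, which does not show that they were equal. The median member log2 difference was -0.11.

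SE KO Dux OE was set against Dux OE, whose libraries chose the members, so that a lower level in the other group is favoured by the choice itself and the counts are a description. SE KO Dux OE was below Dux OE in 97 of the 120, and the median member log2 difference was -0.35, against -0.02 for all genes. At any size, 41 lower and 5 higher had an adjusted p under 0.05, and the share of all genes that did so was not counted. With the size threshold, 11 lower and 2 higher were called (3.84% and 2.46% of all genes). The count of lower calls was 7 with library size alone, without the filter on low counts or with only these 2 groups in the fit. H1f10, a linker histone, was at 24.9 and 29.4 CPM in Dux OE and 9.24 and 10.9 in SE KO Dux OE (log2 fold change -1.47, SE 0.18, adjusted p = 1.9e-06). Plau, urokinase, was at 1.66 and 1.49 CPM in Dux OE and 0.812 and 0.485 in SE KO Dux OE (log2 fold change -1.29, SE 0.32, adjusted p = 0.0035). H1f10 thus lay below all 4 control libraries (11.2 and 13.8 in ESC and 15.3 and 16.5 in DMSO), and Plau close to them (0.779 and 0.592 in ESC and 0.266 and 0.514 in DMSO). Also lower were Lars2, a mitochondrial tRNA synthetase (log2 fold change -1.56, SE 0.22, adjusted p = 1.3e-05), Gm2451 (log2 fold change -2.38, SE 0.47, adjusted p = 0.00047, and -0.95 without Dux OE replicate 1), Vwf (-1.25), Macrod1 (-1.23) and Itga2b (-1.09). Gm15564, a noncoding gene that is no member, was at 1.93 and 2.55 CPM in Dux OE and 0.381 and 0.333 in SE KO Dux OE, lower together with Lars2, and its part in the Lars2 value was not tested. Susd2, Abhd6, Ccdc60 and Hyal1 were called at the edge of the size threshold (-1.03 to -1.001): without Dux OE replicate 2, Susd2 was at -0.90, Abhd6 at -0.91 and Ccdc60 at -0.76, and without Dux OE replicate 1 Hyal1 was at -0.69. Without SE KO Dux OE replicate 2, Plau was at -0.99, Ccdc60 at -0.93 and Hyal1 at -0.86. By role, all 6 cilium, all 5 mitochondrial fuel use and 8 of 9 lysosome members were below 0, and 1 of these 20, Hyal1, was called.

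The 2 members higher in SE KO Dux OE than in Dux OE were Pla2g4a, cytosolic phospholipase A2, and Zcchc12. Pla2g4a was at 3.197 and 3.85 CPM in Dux OE and 10.3 and 8.43 in SE KO Dux OE (log2 fold change 1.37, SE 0.19, adjusted p = 9.0e-06), and Zcchc12 was at 4.26 and 3.17 CPM in Dux OE and 11.9 and 9.28 in SE KO Dux OE (log2 fold change 1.48, SE 0.20, adjusted p = 7.9e-06). Within the knockout, SE KO Dux OE was also set against SE KO RA, where 10 members were higher and 26 lower (17.3% and 18.2% of all genes), and against SE KO PlaB, where 19 were higher and 13 lower (9.07% and 9.98%). Against SE KO RA, Plau (log2 fold change -4.495, SE 0.25, adjusted p = 1.6e-14), H1f10 (-2.49), Ctsh (-2.23), Rec8 (-2.06) and Cln6 (-2.04 on the log2 scale) were lower, and Pla2g4a (log2 fold change 2.59, SE 0.20, adjusted p = 1.3e-11), Apoe (2.06) and Cpt1a (1.502) higher. Against SE KO PlaB, the largest called differences among members whose average log2 CPM reached 1 were Zcchc12 (log2 fold change 3.29, SE 0.23, adjusted p = 8.1e-12) and H2bu2 (2.56) upward and Cpz (-2.16) and Alox5 (-2.12) downward. These 2 comparisons share the SE KO Dux OE libraries.

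Many members were lower in Dux KD RA than in RA. The RA and Dux KD RA libraries were used by no part of the rule. In Dux KD RA, 86 of the 120 lay below RA, with a median member log2 difference of -0.37 against 0.02 for all genes. At any size, 58 lower and 10 higher had an adjusted p under 0.05. The share of all genes that did so was not counted, so these 2 counts have no background. With the size threshold, the test called 22 lower and 3 higher (4.53% and 6.41% of all genes). The share of members called lower was thus above the background and the share called higher below it, with 5 called higher when RA replicate 1 was left out. Duxf3 was at 2.34 and 2.92 CPM in RA and 1.03 and 0.398 in Dux KD RA, and Zscan4c at 142 and 121 CPM in RA and 106 and 99.8 in Dux KD RA.

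All 9 lysosome members were below 0 in this comparison, with a median log2 difference of -0.83. Called were 3 of the 9: Grn, Cln6 and the vitamin B12 carrier Tcn2. Grn fell from 216 and 227 CPM in RA to 85.5 and 85.7 in Dux KD RA (log2 fold change -1.44, SE 0.13, adjusted p = 3.0e-09), near its level in ESC. Tcn2 fell from 69.04 and 68.98 to 30.5 and 32.8 CPM (log2 fold change -1.19, SE 0.16, adjusted p = 1.9e-06) and Cln6 from 38.2 and 41.8 to 20.3 and 20.6 CPM (log2 fold change -1.03, SE 0.17, adjusted p = 1.8e-05). The RA and Dux KD RA libraries did not overlap in any of the 3. Cln6 was at -0.96 without RA replicate 2 and -0.97 with library size alone. Gaa (log2 fold change -0.86, SE 0.12, adjusted p = 4.5e-06) and Igf2r (log2 fold change -0.83, SE 0.09, adjusted p = 4.8e-08) passed the adjusted p but not the size. Of the 63 lysosome genes of the wider list that were tested, 58 were below 0, with 11 called lower and 1 higher, and the 54 that are no members had a median of -0.55 (8 lower, 1 higher).

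Members of other roles fell in Dux KD RA as well. Rec8 fell from 156 and 159 to 51.1 and 51.9 CPM (log2 fold change -1.68, SE 0.10, adjusted p = 8.2e-13) and stayed above its controls. Dnah1 fell from 15.9 and 14.01 to 2.84 and 3.45 CPM (log2 fold change -2.32, SE 0.24, adjusted p = 2.1e-08), into the range of the controls. Stard8, which has a lipid-binding START domain, fell from 47.3 and 46.4 to 16.99 and 15.9 CPM (log2 fold change -1.58, SE 0.15, adjusted p = 1.2e-08). These 3 genes had little spread within a group beside the gap between groups. Sez6, Osbp2, Acot1 (an acyl-CoA thioesterase), Itga2b, Rab3b, Gstt1, Plekhb2, Cpz, Slit2, Prnp, Flt4, Slc40a1, Uap1l1, Apoe, Ccdc162 and Cd109 were the remaining 16 lower genes, with log2 fold changes from -2.14 to -1.02. Prnp, for instance, fell from 36.8 and 37.9 to 16.5 and 18.2 CPM and Flt4, vascular endothelial growth factor receptor 3, from 26.8 and 26.3 to 12.5 and 12.6 CPM. The 3 higher members were Vdr, the vitamin D receptor, at 1.96 and 1.93 CPM in RA and 5.62 and 7.55 in Dux KD RA (log2 fold change 1.69, SE 0.29, adjusted p = 4.9e-05), the pseudogene Gm15421 (log2 fold change 2.19, SE 0.39, adjusted p = 6.1e-05), whose reads may be shared with its parent gene, and Gpr137c (1.08). Without Dux KD RA replicate 1, Cd109 was at -0.82, Cpz was at -0.70 and Gpr137c no longer passed the adjusted p, which Cpz and Gpr137c both missed without RA replicate 2. Without Dux KD RA replicate 2, Ccdc162 was at -0.94 and Cpz at -2.14. Osbp2, still called, was at -1.21 without replicate 1 of Dux KD RA and -3.28 without replicate 2. With library size alone, Cd109 was at -0.95 and Ccdc162 at -0.97. By role, 8 of 9 lipid handling members were below 0 (3 called), as were 7 of 8 receptors and guidance molecules (3 called). All 5 members of mitochondrial fuel use were below 0, with Acot1 the 1 called. Of the 9 matrix members, however, 6 were above 0 and 1 was called lower.

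**Figure D3:**
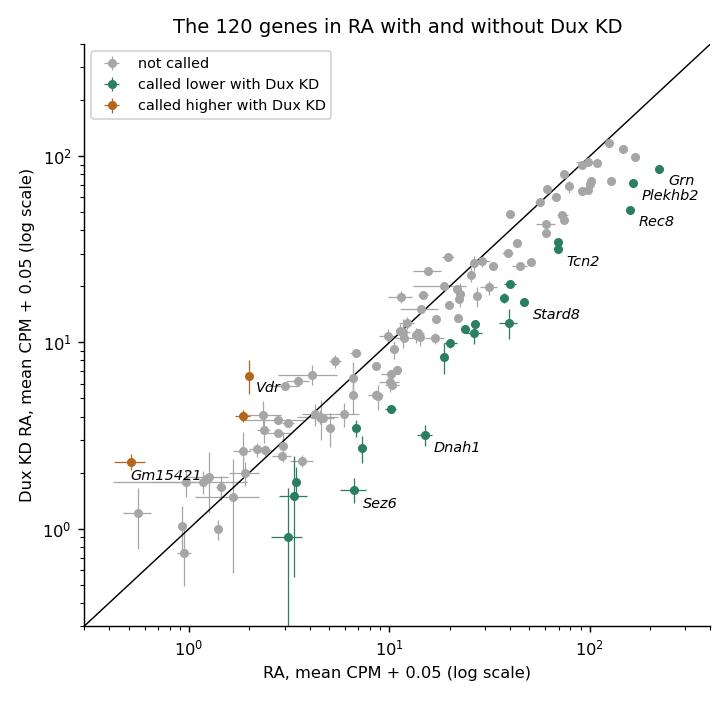
Mean CPM plus 0.05 of the 120 members in RA (x axis) and in Dux KD RA (y axis), both on log scales, with bars of 1 SD over 2 libraries and a line of equality. Green points are the 22 members called lower with Dux KD, orange points the 3 called higher, and most of the grey points also lie below the line. Grn, Plekhb2, Rec8, Tcn2 and Stard8 are labelled below it and Vdr and Gm15421 above.

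In SE KO RA against RA, 6 members were called higher and 6 lower (6.57% and 11.0% of all genes). The difference between the effects of Dux KD and SE KO in RA was not tested, and both comparisons share the RA libraries. Grn, for example, was at 197 and 194 CPM in SE KO RA and Cln6 at 52.5 and 51.4, near or above their RA levels. The largest decrease was in Pla2g4a, from 21.9 and 21.99 CPM in RA to 1.93 and 1.497 in SE KO RA (log2 fold change -3.63, SE 0.20, adjusted p = 8.0e-14), the same gene that was higher in SE KO Dux OE than in Dux OE. Cpt1a fell from 149 and 144 to 62.04 and 61.5 CPM (log2 fold change -1.19, SE 0.08, adjusted p = 3.1e-12). Ccdc162 (-2.05), Thsd4 (-1.91), Zcchc12 (-1.25) and Cpxm2 (-1.39) were the others called lower. Plau rose from 7.01 and 6.44 to 16.3 and 16.6 CPM (log2 fold change 1.34, SE 0.20, adjusted p = 4.6e-06), and Ccdc60 (1.77), H2bu2 (1.65), Scn3b (1.29), Rapgef4 (1.12) and H1f10 (1.05) were also higher. Rapgef4 was at 0.82 without RA replicate 2 and 0.92 without SE KO RA replicate 2, and its call was also lost with DESeq2 (1.13). H1f10 was at 0.94 without RA replicate 1, 0.97 without SE KO RA replicate 1 and 0.998 with library size alone, and the call on Cpxm2 was lost without RA replicate 1 (-0.48) or either SE KO RA library (-1.458 and -1.32).

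**Figure D4:**
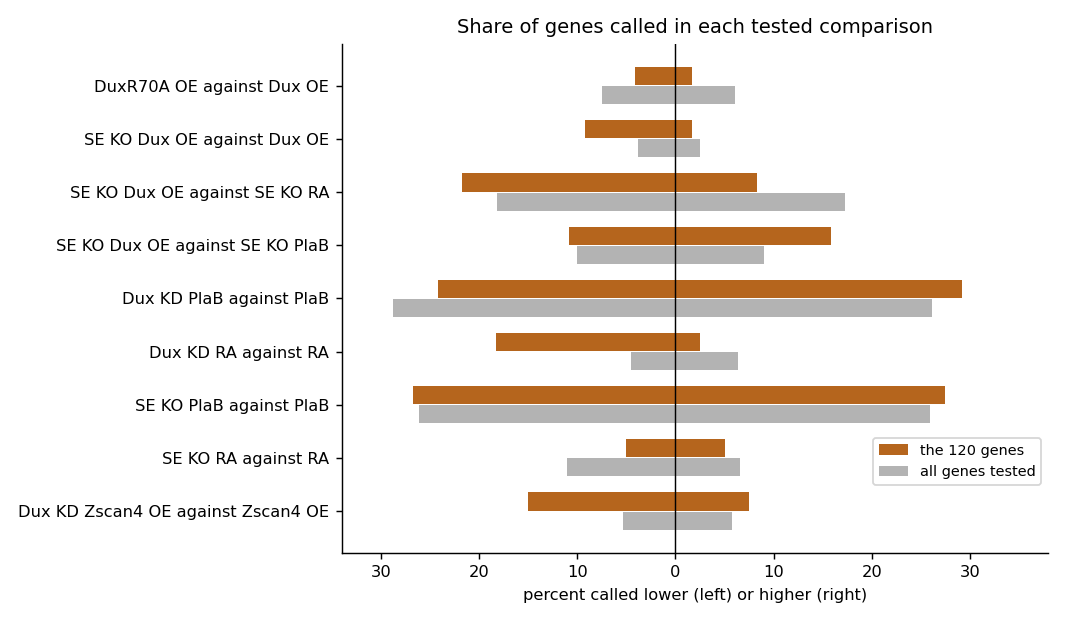
Percent of the 120 members (orange) and of all 20953 genes tested (grey) that were called lower (bars to the left of 0) or higher (bars to the right) in each of the 9 comparisons. In Dux KD RA against RA, whose libraries the rule did not use, the members' bar on the left is the longer (22 of 120, against 4.53%), and in SE KO RA against RA it is the shorter (6 of 120, against 11.0%).

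In PlaB the members moved in both directions and in large numbers, as did all genes. Dux KD PlaB against PlaB gave 35 higher and 29 lower (26.1% and 28.8% of all genes), and SE KO PlaB against PlaB gave 33 higher and 32 lower (25.9% and 26.1%). The Dux KD split depends on scaling: with size factors by relative log expression (RLE) in edgeR it was 27 higher and 37 lower, with DESeq2 26 and 37 and with library size alone 26 and 38. Duxf3 was at 10.3 and 9.296 CPM in PlaB, 0.0574 and 0 in Dux KD PlaB and 1.75 and 2.098 in SE KO PlaB, and the PlaB libraries served both comparisons, so that 1 set of values stands behind both. In both comparisons the members' shares lay near the background.

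Rab21 rose from 8.49 and 10.3 CPM in PlaB to 64.6 and 69.4 in Dux KD PlaB (log2 fold change 3.03, SE 0.10, adjusted p = 4.6e-20) and to 88.3 and 89.7 in SE KO PlaB (log2 fold change 3.36, SE 0.10, adjusted p = 6.3e-21). Cpt1a rose from 38.2 and 38.5 CPM to 146 and 155 (log2 fold change 2.17, SE 0.08, adjusted p = 1.0e-18) and to 184 and 186 (log2 fold change 2.39, SE 0.08, adjusted p = 1.3e-19). In both genes PlaB alone was far below control levels and neither knockdown nor knockout libraries were. Of the 5 members of mitochondrial fuel use, 3 were higher in Dux KD PlaB (Cpt1a, Mlycd and Ogdhl, with 1.38 and 1.501 on the log2 scale for the latter pair). Cdon, a Hedgehog co-receptor, was also higher in Dux KD PlaB (2.81) and SE KO PlaB (2.74), as was Fbxl20 (2.41 and 2.52), and Cln6 (1.497 and 2.06). Pramel1 was at 0.645 and 0.719 CPM in PlaB and 13.1 and 16.1 in SE KO PlaB (log2 fold change 4.53, SE 0.24, adjusted p = 9.7e-16).

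Pttg1 went the other way, falling from 567 and 469 CPM in PlaB to 88.9 and 87.6 in Dux KD PlaB (log2 fold change -2.36, SE 0.10, adjusted p = 7.5e-18) and to 126 and 134 in SE KO PlaB (log2 fold change -1.87, SE 0.10, adjusted p = 6.8e-16), still above its ESC level. Lzts1 fell from 20.8 and 16.8 CPM to 0.2298 and 0.293 in Dux KD PlaB and to 1.33 and 1.07 in SE KO PlaB (-5.94 and -3.84 on the log2 scale), and Prnp fell from 52.3 and 56.2 to 12.2 and 12.9 CPM in Dux KD PlaB (log2 fold change -1.91, SE 0.12, adjusted p = 5.1e-14). All 9 lipid handling members were below 0 in Dux KD PlaB and 4 were called lower (Abhd3, Alox5, Abhd6 and Pctp). H2bu2 was lower in both (-3.51 and -3.39), as was Syn3, a synapsin, in SE KO PlaB (-3.38). H1f10 was at 0.161 and 0 CPM in PlaB, from 3 and 0 counts, and at 15.5 and 14.7 in Dux KD PlaB and 4.41 and 6.901 in SE KO PlaB. Since its PlaB libraries held so few counts, its fitted values (7.65 and 6.17, the latter 9.74 without PlaB replicate 1) depend on the count that edgeR adds, and the same holds for AC132288.1, at 0 and 0.205 CPM in PlaB, and for Thsd4, at 1 and 3 counts.

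The effects of Dux KD and of SE KO differed between PlaB and RA in many members, as they did in many of all genes. For Dux KD, the effect in PlaB minus that in RA was called above 0 in 43 members and below 0 in 24 (25.5% and 26.6% of all genes), and for SE KO in 32 and 30 (28.3% and 20.7%). With library size alone, the Dux KD split was 35 and 30. Rab21 and Cpt1a were above 0 in both, with log2 differences of 2.99 and 2.66 for Dux KD and 3.82 and 3.59 for SE KO. Igf2r was also above 0 in both, at 1.46 for Dux KD and 1.21 for SE KO: its level in PlaB (70.04 and 84.5 CPM) lay below that in Dux KD PlaB (105 and 104) and SE KO PlaB (124 and 116), and its level in RA (166 and 171) above that in Dux KD RA (102 and 97.004) and SE KO RA (115 and 123).

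**Figure D5:**
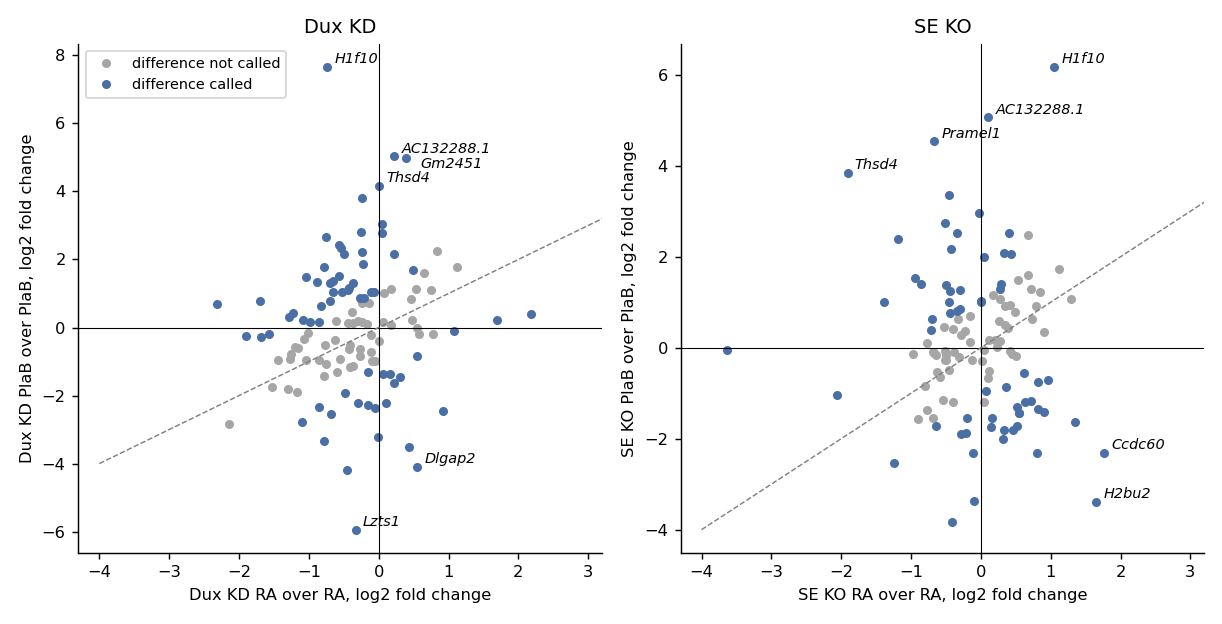
For each of the 120 members, the log2 fold change by Dux KD (left) or SE KO (right) in RA (x axis) and in PlaB (y axis). Blue points are members whose effect differed between PlaB and RA by the test (67 for Dux KD and 62 for SE KO), grey points the rest, and the dashed line marks equal effects. The points spread more along the PlaB axis than along the RA axis in both panels, with H1f10 at the top and Lzts1 at the bottom of the left panel.

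In Zscan4 OE, 107 of the 120 were above ESC, 35 of them at 1.5-fold or more, and the rule set an upper limit there. The share of all genes above ESC was not counted. The median was 1.33-fold over ESC for members and 1.09-fold for genes with a mean of at least 1 CPM. The rule chose members that were low in ESC, so a level above ESC is favoured by the choice. Dux KD Zscan4 OE was below Zscan4 OE in 81 members, with a median member log2 difference of -0.32 against 0.01 for all genes. The test called 18 lower and 9 higher (5.35% and 5.78% of all genes). Zscan4c was at 99.2 and 102 CPM in Zscan4 OE and at 0.743 and 1.04 in Dux KD Zscan4 OE. Since the labels leave doxycycline unclear in the latter, Dux KD and a difference in induction cannot be told apart here. Igf2r fell from 127 and 135 CPM in Zscan4 OE to 59.3 and 48.6 in Dux KD Zscan4 OE (log2 fold change -1.20, SE 0.09, adjusted p = 1.4e-10), below its controls. Rab3il1 (log2 fold change -1.14, SE 0.24, adjusted p = 0.00052) and Flt4 (log2 fold change -1.01, SE 0.16, adjusted p = 2.3e-05) were also lower, and Flt4 lay in or below the range of its controls. Mlycd (-1.54), Frem2 (-1.53), Itga2b (-1.38) and Cd109 (-2.11) were among the others. Without Dux KD Zscan4 OE replicate 2, Rab3il1 was at -0.84 and Flt4 at -0.90, and without Zscan4 OE replicate 2 Flt4 was at -0.93. Reln, Lzts1 and Osbp2 had 2 counts or fewer in each Dux KD Zscan4 OE library. The largest difference of any member was Lars2, at 185 and 217 CPM in Zscan4 OE and 1747 and 3449.7 in Dux KD Zscan4 OE (log2 fold change 3.78, SE 0.24, adjusted p = 3.8e-12). Snap91, a clathrin adaptor of synaptic vesicles, was also higher (log2 fold change 1.21, SE 0.22, adjusted p = 0.00014), at 0.95 without Dux KD Zscan4 OE replicate 1 and 0.997 without Zscan4 OE replicate 1. These 2 Dux KD Zscan4 OE libraries differed from each other more than most pairs (chi-square per degree of freedom 26.1), and Gm15564 moved with Lars2 here too, from 0.899 and 1.35 CPM to 11.2 and 20.6 CPM. The part of library quality in this was not tested.

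The members were not spread evenly over the genome. Chromosome 14 held 13 of the 120 (10.8%, against 3.37% of genes with a mean of at least 1 CPM) and chromosome 9 held 16 (13.3%, against 5.72%). In DuxR70A OE the median gene of chromosome 14 was itself higher, by 0.29 over ESC and 0.33 over DMSO on the log2 scale. For all genes these medians were 0.17 and 0.12, and for chromosome 9 they were 0.13 and 0.14. In Dux OE the chromosome 14 medians were 0.01 and 0.13. On 8 chromosomes (2, 6, 8, 12, 15, 17, 18 and X) the median gene was higher in DMSO than in ESC, by 0.19 to 0.35 on the log2 scale. These held 25 members and 5423 genes with a mean of at least 1 CPM, and the others 95 members and 9550 such genes. All 120 members are counted here, of which 117 reach that mean. A member had to pass in both overexpression groups over both controls, and the part of these shifts in where members lie was not tested. Members had a median total exon length of 5490 bases, against 4119 for genes with a mean of at least 1 CPM.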

How the data were processed

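Poly(A) RNA-seq of the R1 mouse ESC line was deposited as 1 table of whole-number counts per gene for 26 libraries in 13 groups of 2. Per the labels, the authors used FastQC, Trimmomatic, STAR and featureCounts with mm10 and ran DESeq2; no versions are named, and whether the counting used strand is not given in the sources used here, so antisense and overlapping genes may share reads, as may pseudogenes and near-identical copies. Library totals ran from 14401452 to 39402840 (median 18276934), and replicates of a group differed by more than counting noise (chi-square per degree of freedom 1.55 to 30.2), so none was merged. Levels are CPM by column sum. Differences were tested on the deposited counts with edgeR 4.0.16 (R 4.3.3): filterByExpr, TMM, a quasi-likelihood fit of all 26 libraries and Benjamini-Hochberg adjustment over 20953 genes, with a call at an adjusted p under 0.05 and a log2 fold change of at least 1. The common coefficient of biological variation was 0.0833, and printed log2 fold changes include edgeR's prior count of 0.125. No test was run on the contrasts that chose the members.

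The members and lists were chosen with earlier results of these data known, and the role groups and the lysosome, fatty acid oxidation, axoneme and synaptic lists after the members were seen. 1 role group is not reported here. Named genes are the 20 members with the largest smallest ratio, for each comparison the 2 members called higher and the 2 called lower with the largest fold change (average log2 CPM of at least 1, groups not overlapping), and the genes nearest the threshold. All other named members were chosen after their values were seen. Biotypes come from GENCODE M21, positions and exon lengths from the deposited table of counts, and promoters from RefSeq.

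Counts were simulated for Dux KD PlaB against PlaB (18478 genes), and genes were scored by adjusted p under 0.05 alone, without the size threshold of a call. Of genes changed by 1.5, 2 and 4-fold, 13.4%, 70.1% and 98.5% passed in the right direction, and 4 unchanged genes passed. For the difference of differences the shares were 0%, 22.4% and 93.9%. The simulation used 1 dispersion for all genes and changed only genes above a minimum count, so members with few counts are not covered. Alternatives were RLE and library-size scaling, no low-count filter, a replicate block, only the groups compared, DESeq2 1.42.0 and leaving out each library.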

Additional observations from a re-analysis of the deposited data

Results flagged for a closer look

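The effects of Dux KD and of SE KO differed between PlaB and RA in many members, as they did in many of all genes tested. The test was of the difference itself (edgeR quasi-likelihood test of the effect in PlaB minus the effect in RA). For Dux KD the difference was called above 0 in 43 members and below 0 in 24, against 25.5% and 26.6% of all genes tested. For SE KO it was called above 0 in 32 and below 0 in 30, against 28.3% and 20.7%. Both differences use the same RA and PlaB libraries.

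For Dux KD, the members named by the rule were H1f10, a linker histone gene, with a log2 difference of 8.39 (SE 0.49, adjusted p = 1.8e-14), and AC132288.1, at 4.81 (SE 0.62, adjusted p = 1.2e-07), above 0. Lzts1, at -5.61 (SE 0.40, adjusted p = 1.1e-12), and H2bu2, a histone H2B gene, at -3.95 (SE 0.53, adjusted p = 2.7e-07), were below 0. For SE KO they were Thsd4, at 5.76 (SE 0.52, adjusted p = 1.6e-10), and Pramel1, at 5.21 (SE 0.29, adjusted p = 8.2e-15), above 0. H2bu2, at -5.04 (SE 0.48, adjusted p = 4.6e-10), and Ccdc60, at -4.09 (SE 0.37, adjusted p = 1.9e-10), were below 0. H1f10 had 3 and 0 counts in the PlaB libraries, Thsd4 had 1 and 3, and AC132288.1 was at 0 and 0.205 CPM, so the sizes of these 3 differences depend on the prior count. Rab21, an endosomal GTPase gene, was at 2.99 for Dux KD and 3.82 for SE KO, Cpt1a at 2.66 and 3.59, and Igf2r at 1.46 and 1.21, all above 0. Leaving out 1 library at a time gave 4.01 to 8.76 for AC132288.1 (8.76 without PlaB replicate 2), 7.41 to 11.996 for H1f10, -5.76 to -5.32 for Lzts1 and -4.21 to -3.44 for H2bu2 for Dux KD, and 5.27 to 6.63 for Thsd4, 5.03 to 5.41 for Pramel1, -5.38 to -4.53 for H2bu2 and -4.20 to -3.93 for Ccdc60 for SE KO. Groups of 2 libraries are too small for the outlier check used here.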

How the results depend on the processing

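Of 128 pairs of a member and a comparison named in the text, none changed sign under any of 1342 alternative values, and 1285 of these values kept the direction and the side of the threshold. In 21 pairs the call was lost under at least 1 alternative, mostly where the log2 fold change lay near 1 in size. Of the counts of called members, 218 alternative values lay within 1.5 times the reported count and 8 did not. With library size alone, DuxR70A OE against Dux OE gave 5 higher and 3 lower, and SE KO Dux OE against Dux OE gave 7 lower. The latter count was also 7 without the filter on low counts and 7 with only the groups compared. Leaving out 1 library at a time gave 2 to 5 members higher in Dux KD RA against RA (5 without RA replicate 1), 20 to 22 lower in the same comparison, and 8 to 16 lower in SE KO Dux OE against Dux OE (16 without SE KO Dux OE replicate 1). An arm left with 1 library was assumed to vary like the other groups.

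The number of members was 205 with 0.5 added to the means, 7 at a ratio of 2 or more, 88 with TMM-scaled CPM (76 of them among the 120), 119 with each overexpression library above each control library, 166 without the Zscan4 limit and 85 with that limit at 1.5. Leaving out 1 library gave 119 to 137 members, of which 103 to 119 were among the 120. TMM and RLE differ in where they set the centre in PlaB: the median of all genes in Dux KD PlaB against PlaB was -0.14 on the log2 scale with TMM and -0.29 with RLE, and the cause was not tested.

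The labels give every group the replicate numbers 1 and 2. Same-numbered libraries deviated together with correlations between -0.115 and 0.319 over 20953 genes, and with 2 pairs a comparison the numbers are not taken to pair the samples. With the replicate block, SE KO Dux OE against Dux OE gave 10 lower (Ccdc60 was lost at -0.999), SE KO Dux OE against SE KO PlaB gave 12 lower and the Dux KD difference between PlaB and RA was called in 66 members, and no other count of calls moved. A block with the numbers of SE KO RA crossed, chosen after seeing the data, gave 10 higher and 26 lower for SE KO Dux OE against SE KO RA. Depth limits the members with few counts: 3 counts were worth 0.0761 to 0.208 CPM.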

Other observations

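Some members had their highest levels outside Dux OE and DuxR70A OE. Slc40a1, which exports iron from cells, was at 1.45 and 1.07 CPM in ESC, 1.93 and 3.23 in Dux OE, 3.96 and 4.71 in DuxR70A OE, 21.1 and 19.02 in RA and 18.2 and 18.4 in PlaB. Cdon was at 18.2 and 17.2 CPM in ESC, 28.4 and 28.5 in Dux OE, 79.97 and 76.8 in RA and 3.97 and 3.75 in PlaB, so that RA and PlaB lay on opposite sides of ESC. Bcl6, a transcriptional repressor, was at 2.56 and 3.26 CPM in ESC, 6.66 and 7.08 in Dux OE, 5.46 and 7.37 in DuxR70A OE and 14.1 and 14.4 in PlaB.

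Others were highest with the overexpressed proteins. Slc12a7, a potassium-chloride cotransporter, was at 55.97 and 58.1 CPM in ESC, 96.2 and 104 in Dux OE and 137 and 132 in DuxR70A OE, and only the DuxR70A OE libraries lay above those of RA, at 98.4 and 104. St14, the membrane protease matriptase, was at 54.3 and 57.7 CPM in ESC, 103 and 103 in Dux OE, 113 and 104 in DuxR70A OE and 23.04 and 22.6 in PlaB, where both libraries lay below all 4 controls. Reln, a secreted guidance protein, was at 0.278 and 0.592 CPM in ESC, 1.53 and 1.37 in Dux OE and 2.398 and 3.32 in DuxR70A OE, its highest group.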
